A study of Mus musculus with 12 samples.

Results

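The data are 10 genes of the Notch pathway in chondrocytes of mouse articular cartilage, read from the deposited Runx3 RNA-seq values of 17536 genes. The members were chosen by gene symbol: the ligands Jag1, Jag2 and Dll1, the receptors Notch1, Notch2 and Notch3, the receptor modifier Lfng, and the targets Hes1, Hey1 and Heyl. Each symbol matched a single gene. RNA came from SFZ cells (superficial zone) and DZ cells (deep zone) of 5-day-old C57BL/6 mice (C57BL/6J background in the study's methods). There were 3 libraries of each zone and genotype and 12 in all. R3-Cntl mice are Runx3 fl/fl, and R3-cKO mice are Runx3 fl/fl littermates that also carry Col2a1-Cre, a recombinase under the promoter of the cartilage collagen gene, so deletion is limited to cells that have used this promoter. The methods of the study release SFZ cells by a short digestion of the cartilage and DZ cells by a longer digestion of what remains, so zone and digestion cannot be told apart. They name monolayer culture for all cell experiments. Values are FPKM, in which reads are scaled to transcript length and library depth, so that levels can be compared between genes.

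Notch signalling passes between touching cells. A ligand of the Jagged or Delta-like family on a cell binds a Notch receptor on its neighbour, proteases cut the receptor, and its intracellular part enters the nucleus, where it joins the DNA-binding protein RBPJ and switches on genes of the Hes and Hey families, which encode transcriptional repressors. Fringe enzymes such as the product of Lfng add sugar to the receptor and alter which ligands activate it. In the growing skeleton the pathway is known for restraining chondrocyte differentiation, and in articular cartilage Notch1 marks cells near the surface.

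The labels were checked first. Runx3, the targeted gene, stood at 10.73, 5.98 and 6.65 FPKM in SFZ cells of R3-Cntl, 11.83, 9.07 and 3.42 in R3-cKO SFZ, 12.67, 12.65 and 7.66 in R3-Cntl DZ and 15.95, 12.66 and 8.14 in R3-cKO DZ. It was therefore not lower in the libraries labelled R3-cKO (limma, log2 difference -0.04 ± 0.43 SE, adjusted p = 1.0 in SFZ cells, and 0.13 ± 0.28, adjusted p = 0.999 in DZ cells), and values summed over the gene cannot show the loss of a floxed part. Genotype is named below as the libraries are labelled. Col2a1, the collagen that defines chondrocytes, was present in every library but lower in SFZ, at 3048.74 to 9229.04 FPKM against 11247.95 to 22790.57 in DZ (limma, log2 difference -1.57 ± 0.30, adjusted p = 0.00531). All 9 chondrocyte markers tested were past the threshold as lower in SFZ, with a median difference of -1.57. Prg4, the lubricin gene of the superficial zone, had 7.13 to 22.24 FPKM in R3-Cntl SFZ and 1.22 to 1.47 in R3-Cntl DZ, but 2.13 to 6.95 in R3-cKO SFZ and 1.32 to 5.72 in R3-cKO DZ. Between genotypes Prg4 differed by -1.45 ± 0.52 SE in SFZ cells (limma, unadjusted p = 0.0307, adjusted p = 0.9997), an unadjusted level passed by 0.295% of genes. In DZ cells it differed by 0.63 ± 0.38 (limma, adjusted p = 0.9986). Of the 5 superficial zone markers 4 were higher and 1 lower in SFZ, with 3 and 1 of them at an unadjusted p under 0.05 (limma). Only Thbs4, a higher one, was past the adjusted threshold between zones, and the lower one was Gdf5. Gdf5 had 1.37 to 7.59 FPKM in SFZ and 4.59 to 11.83 in DZ. None of the 7 deep zone markers was past the adjusted threshold, with 2 higher and 5 lower in SFZ, and 1 of each at an unadjusted p under 0.05 (limma). Fibroblast and tendon markers, 9 of 9 of which passed the adjusted threshold between zones, summed to 2340 to 6340 FPKM in SFZ and 60.8 to 1240 in DZ libraries. These marker differences run alongside every zone difference given below, and their part in it was not tested. Skeletal muscle markers summed to 119 FPKM in R3-Cntl SFZ library 2 and to at most 19.4 elsewhere, and the Y-linked gene Ddx3y reached at most 0.02 FPKM in libraries 2 and 3 of R3-cKO, in SFZ and DZ alike, and at least 4.96 in the other 8. The part of sex in the values below was not tested. Library totals were 392241 to 429213 FPKM, and replicates correlated at 0.96 to 0.988 (Pearson, log2(FPKM + 1), across genes). In bulk RNA, fewer cells of a type and less RNA per cell cannot be told apart.

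Promoter sequence was read from RefSeq (GRCm38.p6) for 7 of the 10 members. Hes1, Hey1 and Heyl had no entry. The 250 bases before each start were searched on both strands for TGGGAA, the core bound by RBPJ, and for TGTGGT and TGCGGT, cores bound by Runx proteins, which do not overlap TGGGAA in letters. TGGGAA was found in 21.6% of 32851 promoter entries, TGTGGT in 14.0% and TGCGGT in 5.1%. Among the members with an entry, Lfng held 2 RBPJ cores in opposite orientation, starting 135 and 108 bases before the start, and Jag1, Jag2, Dll1, Notch1, Notch2 and Notch3 held none. No Runx core was found in these members. Rbpj itself held 2 RBPJ cores in one entry, starting 149 and 65 bases before the start, and 1 in the other. Below, 120 bases before the Jag1 start are shown because Jag1 had the largest zone difference of the tested members, with 60 bases of Lfng and 110 bases of Rbpj that span their cores. Capitals mark TGGGAA or its reverse complement, and a match is a description of these letters.
Jag1, chr2:137116521-137116640, minus strand: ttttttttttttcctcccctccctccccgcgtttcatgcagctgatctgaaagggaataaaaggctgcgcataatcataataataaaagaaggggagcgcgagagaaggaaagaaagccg
Lfng, chr5:140607196-140607255, plus strand: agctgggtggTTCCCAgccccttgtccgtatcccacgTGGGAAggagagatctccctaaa
Rbpj, chr5:53590186-53590295, plus strand: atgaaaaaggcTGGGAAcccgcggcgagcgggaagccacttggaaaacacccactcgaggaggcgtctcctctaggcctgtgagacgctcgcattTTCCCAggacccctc

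**Figure D1:**
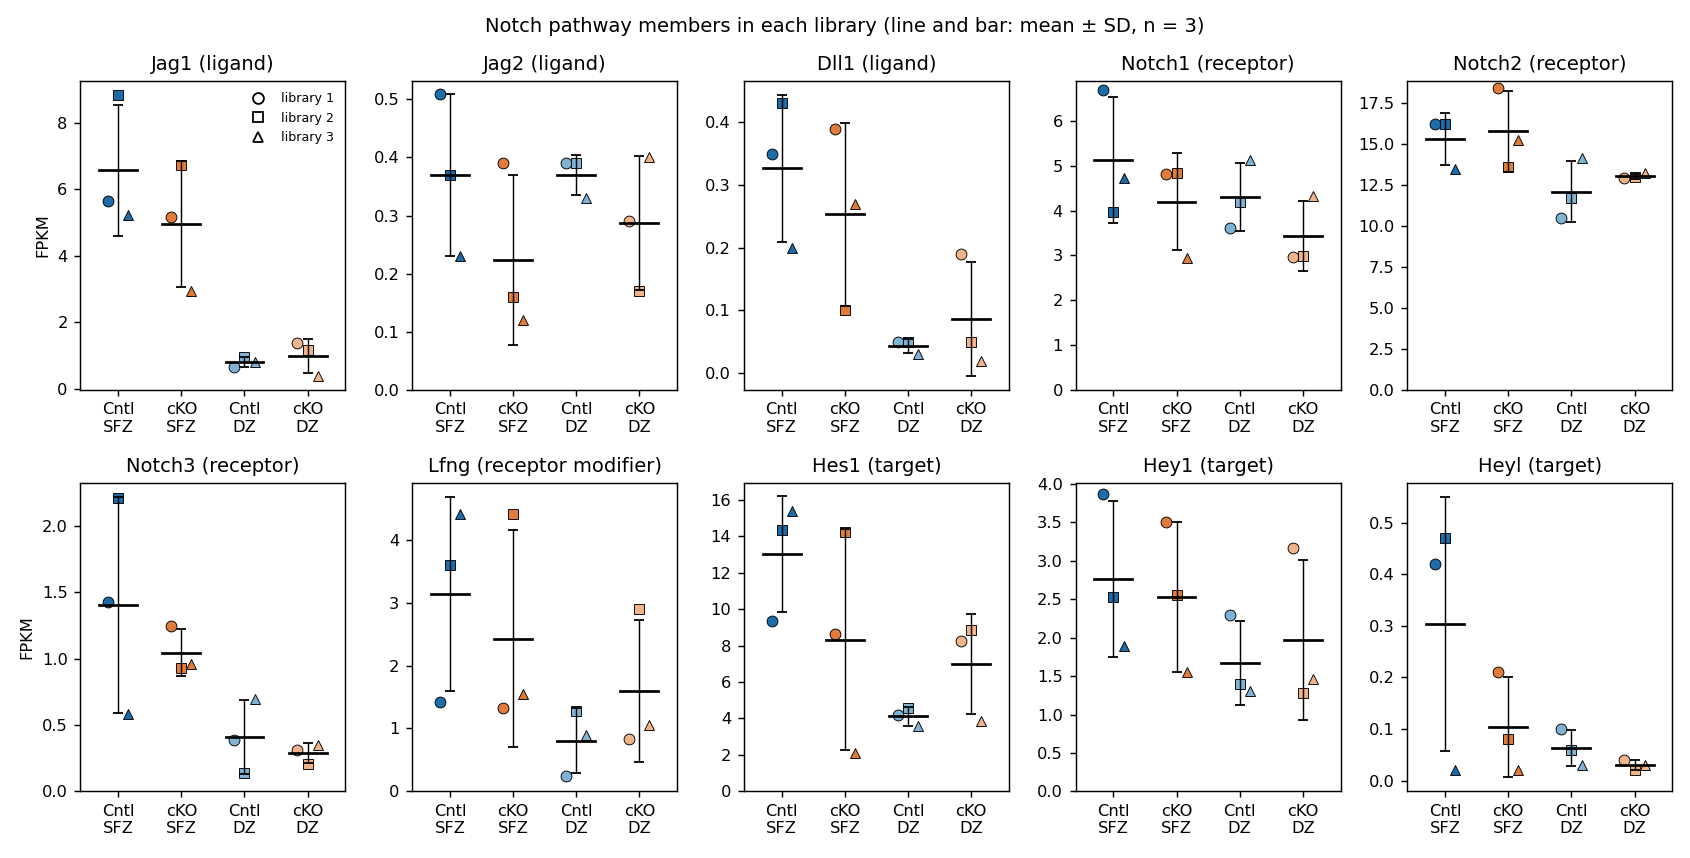
FPKM (y axis, from about 0, a different scale in each panel) of each member in the 12 libraries, by group, with a symbol for each library number and the mean ± SD of 3 libraries. The 6 SFZ libraries of Jag1 sit at 2.96 to 8.84 FPKM, all above the 6 DZ libraries at 0.4 to 1.37.

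Among the ligands, Jag1 was the abundant gene and separated the zones completely. Jag1 (Entrez 16449, mm9 chr2:136907192-136942380, minus strand), a transmembrane ligand, had 5.66, 8.84 and 5.24 FPKM in R3-Cntl SFZ and 5.17, 6.74 and 2.96 in R3-cKO SFZ. In DZ cells it had 0.67, 0.96 and 0.82 FPKM in R3-Cntl and 1.37, 1.17 and 0.4 in R3-cKO. The lowest SFZ library was thus above the highest DZ library, and the zone means were 5.77 ± 1.94 and 0.898 ± 0.348 FPKM (SD, n = 6), a ratio of 6.42. With genotype as a term, SFZ exceeded DZ by 1.80 ± 0.20 SE on the log2(FPKM + 1) scale, which understates folds of low genes (limma, adjusted p = 0.000437, 95% interval 1.36 to 2.24). The exact permutation of zones within genotype gave a two-sided p of 0.005, the smallest its 400 arrangements allow.

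Jag1 was higher in SFZ in both genotypes. The SFZ mean was 8.06 times the DZ mean in R3-Cntl and 5.06 times in R3-cKO. The log2 difference was 2.03 ± 0.20 in R3-Cntl (limma, adjusted p = 0.0338) and 1.57 ± 0.32 in R3-cKO (adjusted p = 0.138). In R3-Cntl Jag1 reached 1 FPKM in the 3 SFZ libraries only, so it entered that fit through the zone where it is high, and with no filter its adjusted p was 0.0924 (limma). Same-numbered R3-cKO libraries of the 2 zones deviated together, with SFZ to DZ ratios of 3.77, 5.76 and 7.4. With the number as a block the R3-cKO adjusted p was 0.0302 (limma). That call was made for 3.11% of genes in that fit, against 0.0176% without the block. R3-cKO DZ library 3, at 0.4 FPKM, was under the filter level, so here too Jag1 needed its SFZ values to be tested. With no filter and no block the R3-cKO adjusted p was 0.225 (limma). The genotype effects in the 2 zones differed by -0.46 ± 0.39 (interaction, adjusted p = 0.999, interval -1.34 to 0.41), so a difference in the Jag1 zone step between genotypes was not detected. Leaving out the 3 SFZ libraries with the highest endothelial marker sums left a difference of 1.62. That fit kept only library 3 of R3-Cntl SFZ, with libraries 2 and 3 of R3-cKO SFZ. Fibroblast and tendon markers summed to 2713, 2336 and 6336 FPKM in these, against 60.8 to 1240 in DZ, and their part was not tested.

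Jag2 (Entrez 16450, mm9 chr12:114146801-114167706, minus strand), the second Jagged ligand, was below 1 FPKM in every library and did not pass the filter. It had 0.51, 0.37 and 0.23 FPKM in R3-Cntl SFZ, 0.39, 0.16 and 0.12 in R3-cKO SFZ, 0.39, 0.39 and 0.33 in R3-Cntl DZ and 0.29, 0.17 and 0.4 in R3-cKO DZ. Its groups overlapped, with a zone difference of -0.04 on the log2(FPKM + 1) scale (exact permutation p = 0.54, two-sided). Dll1 (Entrez 13388, mm9 chr17:15504318-15513836, minus strand), a Delta-like ligand, was also below 1 FPKM throughout. It had 0.35, 0.43 and 0.2 FPKM in R3-Cntl SFZ and 0.39, 0.1 and 0.27 in R3-cKO SFZ, against 0.05, 0.05 and 0.03 in R3-Cntl DZ and 0.19, 0.05 and 0.02 in R3-cKO DZ. The R3-Cntl zones did not overlap and the R3-cKO zones overlapped in 1 library (exact permutation over both genotypes, p = 0.01, log2 difference 0.27). In a fit with no filter on low values its adjusted p was 0.0195 (limma), on values where 0.43 FPKM was the highest. Its 3 highest values are in the 3 SFZ libraries with the highest sums of endothelial markers, and without them, a fit that removes its highest values by construction, the difference was 0.15 (limma, no filter, adjusted p = 0.215).

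Summed over Jag1, Jag2, Dll1, Dll3 and Dll4, the canonical ligands had 3.56 to 9.84 FPKM in SFZ and 0.94 to 1.94 in DZ libraries. Jag1 made up 83.1 to 93.7% of this sum in SFZ and 42.6 to 80.1% in DZ. The receptors, by contrast, overlapped between zones in their sum, at 18.8 to 24.6 FPKM in SFZ and 14.5 to 20.0 in DZ. The ratio of receptor to ligand FPKM was accordingly 2.3 to 5.4 in SFZ and 8.36 to 19.1 in DZ libraries, with no overlap.

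**Figure D2:**
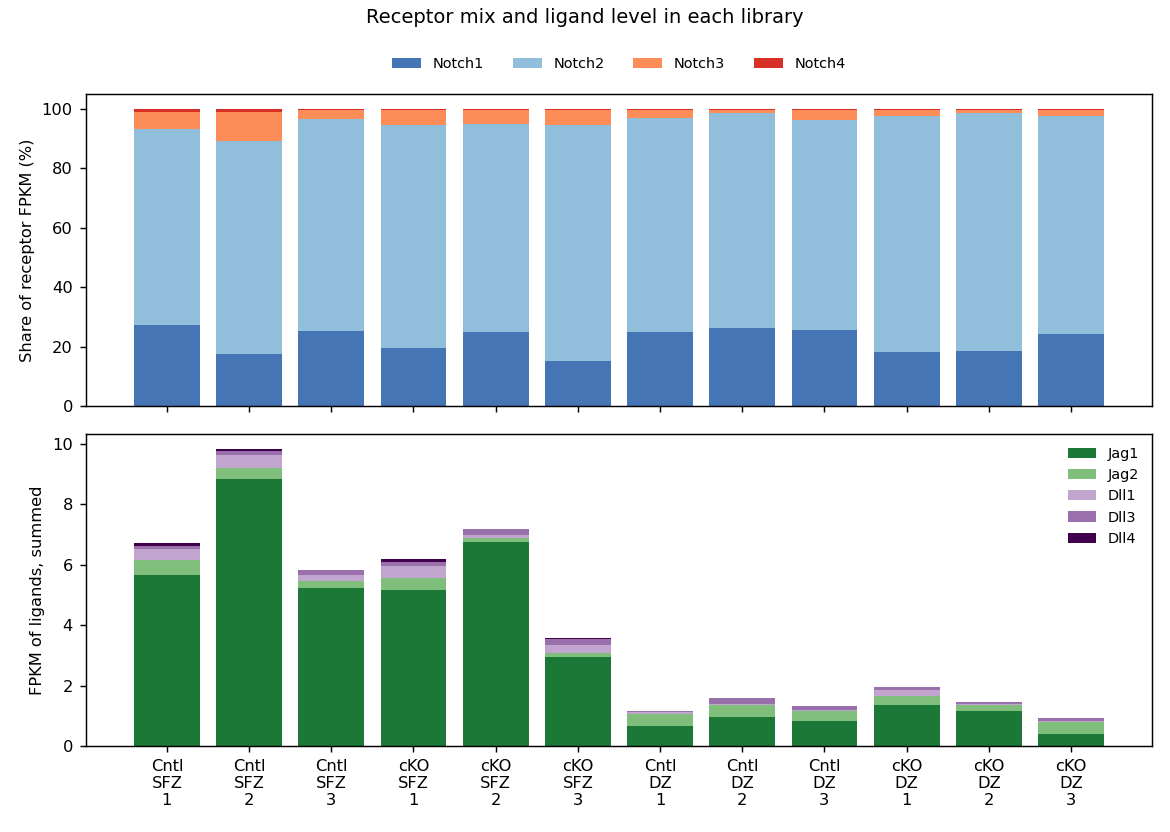
Upper panel: share of each receptor (%, stacked to 100) in the summed FPKM of Notch1 to Notch4 in each library. Lower panel: FPKM of the 5 canonical ligands, stacked. Notch2 holds 66.0 to 80.0% of receptor FPKM in every library, while the ligand bars reach 3.56 to 9.84 FPKM in SFZ and 0.94 to 1.94 in DZ.

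Notch2 was the main receptor transcript in all libraries. Notch2 (Entrez 18129, mm9 chr3:97817461-97954290, plus strand) had 16.2, 16.2 and 13.45 FPKM in R3-Cntl SFZ, 18.41, 13.59 and 15.24 in R3-cKO SFZ, 10.47, 11.66 and 14.12 in R3-Cntl DZ and 12.88, 12.95 and 13.19 in R3-cKO DZ. It made up 66.0 to 80.0% of the summed receptor FPKM. The SFZ mean of 15.5 ± 1.86 was 1.24 times the DZ mean of 12.5 ± 1.29 (SD, n = 6), and R3-Cntl DZ library 3 lay within the SFZ range. The log2 difference of 0.28 ± 0.09 passed the threshold narrowly (limma, adjusted p = 0.0451), and kept it in 5 of 22 alternatives. It fell to 0.13 (limma, adjusted p = 0.398) after quantile normalization and to 0.14 without the 3 SFZ libraries with the highest endothelial sums. Those libraries hold its highest values, 16.2, 16.2 and 18.41 FPKM, so the latter fit removes them by construction.

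Notch1 (Entrez 18128, mm9 chr2:26313423-26372183, minus strand) came next, with 6.69, 3.96 and 4.72 FPKM in R3-Cntl SFZ and 4.81, 4.83 and 2.95 in R3-cKO SFZ. In DZ cells it had 3.62, 4.19 and 5.12 FPKM in R3-Cntl and 2.97, 2.99 and 4.33 in R3-cKO. The zones overlapped widely. The log2 difference of 0.21 ± 0.14 did not pass the threshold (limma, adjusted p = 0.325, interval -0.11 to 0.52) and was -0.04 after quantile normalization.

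Notch3 (Entrez 18131, mm9 chr17:32257765-32303825, minus strand), the receptor of vascular mural cells, was low and higher in SFZ. It had 1.43, 2.21 and 0.58 FPKM in R3-Cntl SFZ, 1.25, 0.93 and 0.96 in R3-cKO SFZ, 0.39, 0.14 and 0.7 in R3-Cntl DZ and 0.31, 0.21 and 0.35 in R3-cKO DZ. The R3-cKO zones did not overlap, and R3-Cntl SFZ library 3 lay below R3-Cntl DZ library 3. Over both genotypes the log2 difference was 0.70 ± 0.16 (limma, adjusted p = 0.0124; exact permutation p = 0.01), a ratio of means of 3.5. It reached 1 FPKM in 3 libraries, all of them SFZ, and so entered the test only through the zone where it is high.

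Markers of other cells were measured beside Notch3 and Jag1. All 12 endothelial markers were in the table, and their sum was 9.58, 7.21 and 2.45 FPKM in R3-Cntl SFZ, 6.24, 2.79 and 2.96 in R3-cKO SFZ and 1.75 to 2.62 in DZ. Egfl7 made up most of the DZ sums, at 1.5 to 2.21 FPKM in DZ and 1.62 to 2.78 in SFZ. It was the only endothelial marker tested (limma, log2 difference 0.05, adjusted p = 0.774). The defining genes Pecam1 and Cdh5 had at most 1.58 and 1.21 FPKM, and Cdh5 was listed at 0 to 0.01 in DZ. The 3 libraries at 1 FPKM of Notch3 or more are the 3 with the highest endothelial sums, so leaving them out removes the highest Notch3 values and is no separate check. Mural cell markers, of which 8 of 9 were in the table, summed to 195 to 545 FPKM in SFZ and 186 to 521 in DZ, nearly all from Acta2, Cspg4 and Pdgfrb. Of the 4 tested, 1 passed between zones, Pdgfrb, a receptor of mural cells and fibroblasts, at 45.32 to 104.74 FPKM in SFZ and 27.73 to 36.21 in DZ (limma, log2 difference 1.08 ± 0.18, adjusted p = 0.0028). The zones overlapped in the other 3 tested, Acta2, Mcam and Cspg4. In all, 2 of the 4 were higher and 2 lower in SFZ. The lower ones were Mcam, at 0.91 to 5.86 FPKM in SFZ and 1.86 to 6.39 in DZ, and Cspg4, at 19.91 to 84.1 and 71.01 to 131.08. The 4 untested were low. Abcc9 had 0.14 to 1.17 FPKM in SFZ and 0.01 to 0.06 in DZ and Myh11, a smooth muscle myosin, 0.05 to 1.18 and 0.01 to 0.04, without overlap, while Rgs5 had 0.08 to 1.05 and 0 to 0.22 and Kcnj8 0 to 0.34 and 0 to 0.03, with overlap. Macrophage markers summed to 6.41 to 160 FPKM in SFZ and 3.3 to 21.1 in DZ, and all 5 tested were past the adjusted threshold as higher in SFZ (limma, median difference 1.58). The part of these cells in the Notch3 values was not tested.

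Lfng (Entrez 16848, mm9 chr5:141083295-141091497, plus strand), whose product is a sugar transferase acting on Notch receptors, ranged from 0.25 to 4.41 FPKM. It had 1.42, 3.6 and 4.4 FPKM in R3-Cntl SFZ, 1.33, 4.41 and 1.54 in R3-cKO SFZ, 0.25, 1.28 and 0.89 in R3-Cntl DZ and 0.84, 2.9 and 1.05 in R3-cKO DZ. The SFZ mean was 3.89 times the DZ mean in R3-Cntl, and in the same-numbered R3-cKO pairs SFZ was higher by 1.58, 1.52 and 1.47 times. The R3-Cntl zones did not overlap, whereas the R3-cKO zones did. Its DZ values of 0.25 and 0.89 in R3-Cntl and 0.84 in R3-cKO were under the filter level. Within each genotype it was therefore tested only because of its SFZ values. The log2 difference over both genotypes was 0.77 ± 0.31 (limma, adjusted p = 0.0975). It passed in 2 of 21 alternatives, without R3-cKO DZ library 2 (0.96, adjusted p = 0.0358) and with the replicate block. After quantile normalization it was 0.52 (limma, adjusted p = 0.27).

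Hes1 (Entrez 15205, mm9 chr16:30064470-30067882, plus strand), a repressor and the best-known Notch target, was the most abundant target in every library. It had 9.37, 14.34 and 15.35 FPKM in R3-Cntl SFZ and 4.2, 4.59 and 3.58 in R3-Cntl DZ. In R3-cKO it had 8.63, 14.22 and 2.12 FPKM in SFZ and 8.27, 8.86 and 3.86 in DZ. The R3-Cntl zones were fully separated, with a ratio of means of 3.16, while in R3-cKO the SFZ libraries spanned the DZ range and library 3 was below every DZ library.

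In R3-Cntl the Hes1 log2 difference between zones was 1.43 ± 0.20 (limma, adjusted p = 0.048). In R3-cKO it was 0.01 ± 0.61 (adjusted p = 0.995, interval -1.46 to 1.49), and over both genotypes 0.72 ± 0.39 (adjusted p = 0.207). Without R3-cKO SFZ library 3 the difference over both genotypes was 1.09 (adjusted p = 0.0142). The same library had the highest fibroblast and tendon marker sum, 6336 FPKM against 2336 to 4927 in the other SFZ libraries. The sum of 8 early response genes, which rise when cells are dissociated, was 91.7, 210 and 212 FPKM in R3-Cntl SFZ, 99.4, 195 and 87.9 in R3-cKO SFZ, 73.7, 136 and 81.0 in R3-Cntl DZ and 130, 203 and 78.8 in R3-cKO DZ. Their part in the Hes1 values was not tested.

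Hey1 (Entrez 15213, mm9 chr3:8663362-8667039, minus strand), a related repressor, had 3.87, 2.53 and 1.89 FPKM in R3-Cntl SFZ, 3.5, 2.55 and 1.55 in R3-cKO SFZ, 2.3, 1.4 and 1.31 in R3-Cntl DZ and 3.17, 1.28 and 1.46 in R3-cKO DZ. The SFZ mean was 1.65 times the DZ mean in R3-Cntl and 1.29 times in R3-cKO, and the zones overlapped. The log2 difference was 0.37 ± 0.20 (limma, adjusted p = 0.202, interval -0.07 to 0.82), and 0.10 without the 3 SFZ libraries with the highest endothelial sums. The highest Hey1 values, 3.87 and 3.5 FPKM, are in those libraries, so that fit removes them by construction. Heyl (Entrez 56198, mm9 chr4:122910799-122927118, plus strand), the third Hey gene, was below 1 FPKM throughout. It had 0.42, 0.47 and 0.02 FPKM in R3-Cntl SFZ, 0.21, 0.08 and 0.02 in R3-cKO SFZ, 0.1, 0.06 and 0.03 in R3-Cntl DZ and 0.04, 0.02 and 0.03 in R3-cKO DZ. Its highest values were in the 3 SFZ libraries with the highest endothelial sums, and the zone difference was 0.19 (exact permutation p = 0.125, two-sided).

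Over both genotypes, 7 of the 10 members passed the filter of 1 FPKM in 3 libraries. Of these, 3 were past the adjusted threshold, Jag1, Notch2 and Notch3, all higher in SFZ. Notch3 was tested only because of its SFZ values. Jag1 reached 1 FPKM in 8 libraries, the 6 of SFZ among them, and would not have passed the filter on its DZ values alone. With no filter Jag1 and Notch3 passed (limma, adjusted p = 0.00092 and 0.0143) and Notch2 did not (0.0538). Among all 11765 genes tested with the filter, 23.2% were past the threshold, 18.9% higher in SFZ. After quantile normalization 2 members passed, Jag1 and Notch3, where 7.78% of genes were higher and 10.5% lower in SFZ, and the same 2 passed with median-of-ratios factors, where 9.25% were higher and 8.95% lower. Jag1 was the only tested member whose 6 SFZ libraries all lay above its 6 DZ libraries, as 9.71% of genes did. The median difference of all genes was 0.141 under the deposited scaling, -0.034 after quantile normalization and -0.002 with median-of-ratios factors, so differences near 0.14, such as that of Notch1, do not stand apart from the whole table.

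Within R3-Cntl, 6 members were tested and Jag1 and Hes1 were past the threshold, as were 1.09% of genes in that direction. Jag1 and Lfng were tested only because of their SFZ values, here and in R3-cKO. With no filter neither Jag1 nor Hes1 passed (limma, adjusted p = 0.0924 and 0.105). Both calls were lost without R3-Cntl DZ library 1, 2 or 3, with adjusted p from 0.0684 to 0.152, and that of Hes1 also without R3-Cntl SFZ library 2 or 3, while Jag1 then falls under the filter. Of the tested members Jag1, Hes1 and Lfng did not overlap between zones, a pattern shown by 26.5% of genes. Dll1, which did not pass the filter, did not overlap either. Within R3-cKO none of the 6 was past the threshold without the replicate block (limma). At an unadjusted p under 0.05 there was 1, Jag1, beside 1258 genes higher and 344 lower in SFZ of 11336. With the block, which the deviations of these libraries call for, Jag1 passed as given above, and Lfng was at an unadjusted p of 0.0201 (limma, adjusted p = 0.113). In that fit 2580 genes were higher and 816 lower in SFZ at an unadjusted p under 0.05. Of the members tested in R3-cKO, Jag1 and Notch2 did not overlap, as for 16.8% of genes. Notch3, which did not pass the filter there, did not overlap either.

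No member passed the threshold between genotypes. In SFZ cells 7 members were tested and 0 were past the adjusted or the unadjusted threshold (limma), among all genes 0% and 0.295%. Hes1 had a log2 difference of -0.84 ± 0.58 (R3-cKO minus R3-Cntl, adjusted p = 1.0, interval -2.24 to 0.57), Jag1 -0.37 ± 0.30 (interval -1.09 to 0.35), Lfng -0.30 ± 0.44, Notch1 -0.24 ± 0.23, Notch3 -0.18 ± 0.28, Hey1 -0.10 ± 0.28 and Notch2 0.04 ± 0.15. The genotypes overlapped in every tested member, and 2.4% of all genes did not overlap. The intervals were widest for Hes1 and Lfng (-1.36 to 0.76) and narrowest for Notch2 (-0.32 to 0.39). Single libraries moved these differences widely. Jag1 was -0.10 without R3-cKO SFZ library 3 and -0.59 without library 2, and Hes1 was -0.18 and -1.33 in the same fits. Leaving out R3-cKO SFZ library 2 gave -0.69 for Lfng, and leaving out library 3 of the R3-Cntl SFZ group gave -0.07.

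In DZ cells 5 members were tested and 0 were past either threshold (limma), among all genes 0% and 3.64%. Hes1 differed by 0.58 ± 0.28 (adjusted p = 0.999, interval -0.10 to 1.25), Lfng by 0.48 ± 0.36, Notch1 by -0.27 ± 0.18, Hey1 by 0.12 ± 0.28 and Notch2 by 0.11 ± 0.13. Over the alternatives Hes1 ran from 0.369 to 0.905, Lfng from 0.174 to 0.921 and Notch1 from -0.406 to -0.144, none past the adjusted threshold. Same-numbered DZ libraries of the genotypes deviated together. In the 3 pairs Hes1 was 1.97, 1.93 and 1.08 times as high in R3-cKO, Lfng 3.36, 2.27 and 1.18 times, and Notch1 0.82, 0.714 and 0.846 times. With the number as a block these 3 members had unadjusted p of 0.0201, 0.0313 and 0.0386 (limma), a level passed by 16.5% of genes, and adjusted p of 0.244, 0.269 and 0.284. The DZ groups of every tested member overlapped, and 8.03% of all genes did not.

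The genotype effects of the zones were then compared. For Hes1 the ratio of the R3-cKO mean to the R3-Cntl mean was 0.639 in SFZ and 1.7 in DZ. The interaction of -1.42 ± 0.70 did not pass the threshold (limma, adjusted p = 0.999, interval -2.96 to 0.13). Over 18 alternatives it ran from -1.907 to -0.763 (limma, adjusted p 0.577 to 1.0). None of the 7 tested members was past the adjusted or unadjusted threshold, against 0% and 0.841% of all genes.

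**Figure D3:**
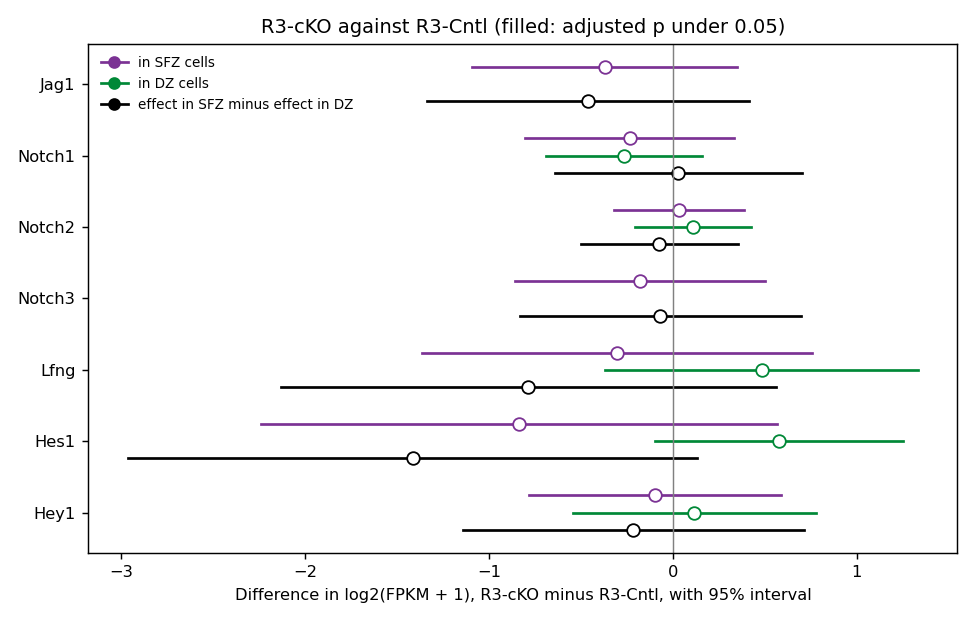
Difference between R3-cKO and R3-Cntl in log2(FPKM + 1) (x axis, bars are 95% intervals) in SFZ cells, in DZ cells, and the difference of these effects, for tested members. Every interval holds 0, and that of the Hes1 difference of effects runs from -2.96 to 0.13.

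Beyond the members, 44 further pathway genes were examined, of which 32 passed the filter. Rbpj (Entrez 19664, mm9 chr5:53947018-54048684, plus strand), the DNA-binding partner of the cut receptor, had 30.83, 47.51 and 47.78 FPKM in R3-Cntl SFZ, 40.44, 43.16 and 39.71 in R3-cKO SFZ, 12.07, 21.19 and 23.57 in R3-Cntl DZ and 21.95, 33.74 and 20.43 in R3-cKO DZ. The zones did not overlap within a genotype, and the log2 difference was 0.92 ± 0.19 (limma, adjusted p = 0.00729). Between genotypes it was -0.01 ± 0.19 in SFZ and 0.42 ± 0.29 in DZ cells.

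Of these 32 genes, 12 were past the adjusted threshold between zones and all 12 were higher in SFZ, as were 18.9% of all genes. After quantile normalization 2 were higher and 1 lower, and with median-of-ratios factors 3 were higher and 1 lower, to be read against the shares of all genes given above for these scalings. The same 2 genes, Rbpj and Rfng, were higher under all 3 scalings, and Fbxw7, whose product marks the cut receptor for degradation, was the lower gene in the latter 2. The median over the 32 was 0.24, beside 0.141 for all genes. Without the 3 SFZ libraries of highest endothelial sums this median was 0.227, and 1 gene passed, Adam17, with 3.49% of all genes higher in SFZ in that smaller fit. Rfng, a relative of Lfng, had a log2 difference of 0.54. In the receptor cleavage group 3 of 8 tested genes passed, namely the proteases Adam10 (0.69) and Adam17 (0.38) and the gamma-secretase subunit Aph1a (0.23). In the nuclear complex 4 of 7 passed, with Maml2 (0.45), Spen (0.29) and Ep300 (0.28) beside Rbpj. Numb (0.34), Numbl (0.31) and Dtx2 (0.40) passed among 7 genes of turnover and inhibition, and Mib1 (0.40), a ubiquitin ligase that activates ligands, among 4 of its group.

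Several canonical partners were close to the lower limit of the values. Dll4 had 0 to 0.11 FPKM, Notch4 0.03 to 0.23 and the target Hes5 0 to 0.06, and none of the 4 other targets passed the filter. Dlk1, a non-canonical ligand of embryonic cartilage and fat precursors, was by contrast at 49.2 to 164.17 FPKM, with overlapping zones (0.43 ± 0.27, limma, adjusted p = 0.273). Between genotypes 0 of the 32 genes passed the adjusted threshold in either zone (limma), and at an unadjusted p under 0.05 there were 0 in SFZ and 1 in DZ, Numbl (0.28, adjusted p = 0.999).

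**Figure D4:**
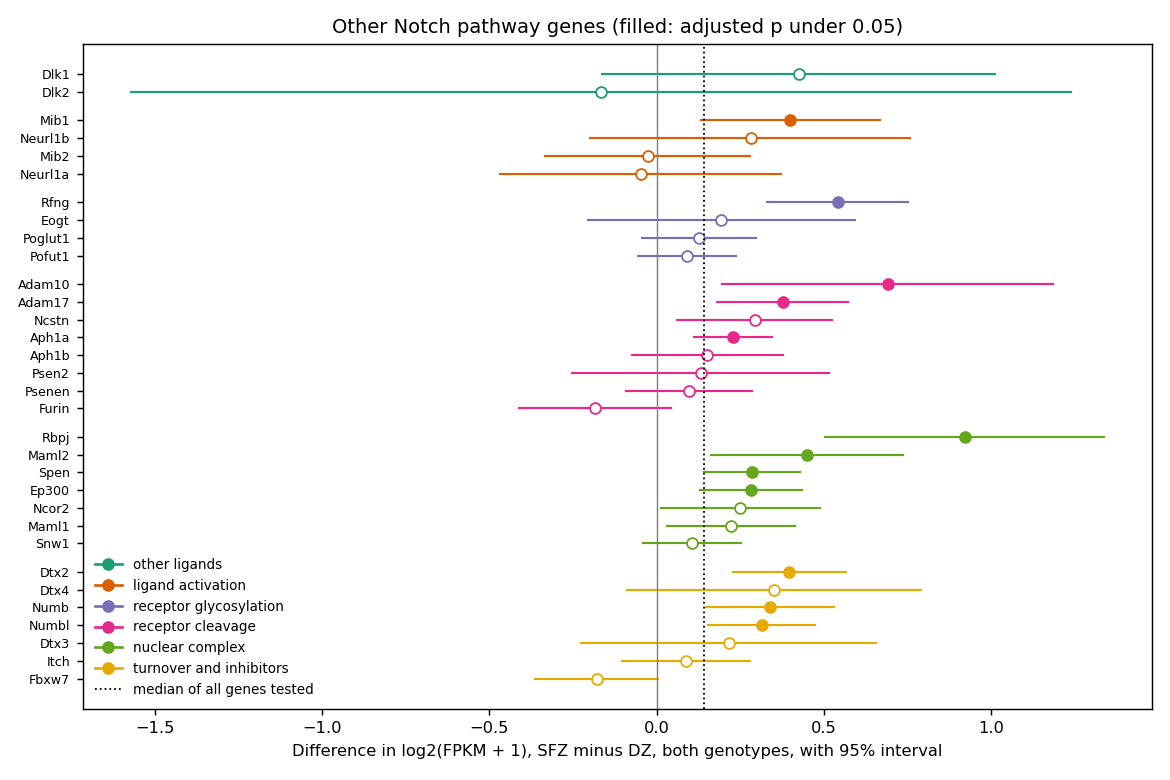
Difference between SFZ and DZ in log2(FPKM + 1) over both genotypes (x axis, bars are 95% intervals) for the 32 tested pathway genes outside the members, grouped by role, with the median of all genes tested (0.141) as a dotted line. Filled points passed an adjusted p of 0.05, and Rbpj lies farthest to the right at 0.92.

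Across the 12 libraries the members varied together to different degrees. Pearson correlations of log2(FPKM + 1), given as a description over points that share zone, library number and scaling, were 0.729 for Lfng and Hes1, 0.705 for Jag1 and Hes1, 0.692 for Jag1 and Lfng and 0.682 for Jag1 and Notch2. Lfng and Hey1 gave -0.029 and Lfng and Notch1 0.107. The genes most like each member were then taken from 8278 genes (8277 for Notch2 and Hes1) whose mean reached 5 FPKM. They were Rap2a (0.987), Nectin3 and Tmem237 for Jag1, Zc3h11a (0.956), Wdr13 and Atp11a for Notch2, and Dnm1 (0.82), Stxbp6 and Col15a1 for Notch1. For Lfng they were Ipo9 (0.985), Prrc2a and Actr1a, for Hes1 Disp1 (0.947), Stmn1 and Pimreg, and for Hey1 Ogg1 (0.93), Tagap1 and Pmvk. By Spearman correlation 6 of these 18 genes remained among the 3 most alike.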

How the data were processed

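RNA from SFZ and DZ cells was sequenced by the authors on a BGISEQ-500 as 100-bp paired-end reads and mapped to mm9. Bowtie 0.12.2 is named in the submitters' processing notes. The deposited values are FPKM per gene, after TMM scaling between libraries by the authors. The unit was inferred from the values and headings. Counts and depth are unknown, so the spread between libraries is the only error. Values of 12 libraries were analysed as log2(FPKM + 1) with limma 3.58.1 in R 4.3.3 (linear models, empirical Bayes with trend, Benjamini-Hochberg adjustment over all genes tested), after dropping genes that did not reach 1 FPKM in 3 libraries of the fit, at a threshold of 0.05. Scripts were tested on simulated data. Single genes were compared by exact permutation over libraries, where 3 against 3 cannot go below 0.1. The p-values measure the spread between libraries.

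The members and lists were chosen with earlier results of these data known. A gene of the pathway lists is not reported here and was left out of their counts. Named genes are the members, list genes past the threshold, Rbpj, Dll4, Notch4, Hes5, Dlk1, Runx3, the zone markers and, for each member with a mean of at least 1 FPKM, the 3 genes of highest Pearson correlation. Other marker genes, Ddx3y and Fbxw7 were named after their values were seen. The main fits and the permutations did not pair libraries. Fits with the number as a block were alternatives, read as paired where every correlation of same-numbered deviations was over 0.1. This held for the genotypes in DZ (0.653, 0.781, 0.687) and the zones in R3-cKO (0.418, 0.781, 0.653), over 11359 genes, with littermates named by the study. Same-numbered libraries of the R3-Cntl zones (0.575, 0.111, -0.151) and the SFZ genotypes (0.787, -0.094, -0.415) were not read as paired. R3-Cntl SFZ library 3 instead deviated with R3-Cntl DZ library 2 (0.58) and R3-cKO SFZ library 2 (0.688). R3-Cntl SFZ library 2 deviated with R3-Cntl DZ library 3 (0.38) and R3-cKO SFZ library 3 (0.449), and no fit paired them so. Alternatives were other filters, pseudocounts of 0.1 and 5, quantile and median-of-ratios scaling, a replicate block, 4 groups in one model and each library left out. Figures used Python 3.11.15 with matplotlib 3.10.9.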

Additional observations from a re-analysis of the deposited data

How the results depend on the processing

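The higher level of Jag1 in SFZ kept its direction and its call over both genotypes in all 21 alternatives (0.85 to 2.57 on the log2 scale, limma, adjusted p 0.000326 to 0.0231). Notch3 kept its call in 16 of 17, the exception being the fit without the 3 SFZ libraries where it is highest, and Notch2 in 5 of 22. Members past the threshold over both genotypes numbered 3, but 0 under a mean filter of 10 FPKM, where Notch2 alone was tested, and 1, Jag1, without the 3 SFZ libraries of highest endothelial sums, with or without the filter, an alternative chosen after seeing the data. Genes past it went from 2725 to 1162, 579 and 537. With each library left out, members numbered 1 to 3 and genes 1624 (without R3-Cntl SFZ library 2) to 2899. The 1 stands for the fits without R3-Cntl SFZ library 1 or 2 or R3-cKO SFZ library 1, where Notch3 fell under the filter.

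In R3-Cntl the 2 members and 140 genes became 0 and 0 with no filter, 0 and 8 under the mean filter, 1 and 29 with a pseudocount of 5, 0 and 1 after quantile normalization, 1 and 17 with median-of-ratios factors and 1 and 798 with 4 groups in one model. A pseudocount of 0.1 gave 88 genes. Without single libraries they were 0 to 2 members and 0 to 505 genes, the 505 without SFZ library 1. In R3-cKO the 0 members and 2 genes became 5 genes with no filter, 0 under the mean filter, 1 with either pseudocount, 1 member and 165 genes with 4 groups, and 0 to 5 genes without single libraries. Between genotypes in DZ 1 gene passed with no filter. The cause of these shifts was not tested.

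With the replicate block, the R3-Cntl zones gave 831 genes and 3 members (Lfng with Jag1 and Hes1), the R3-cKO zones 352 genes and 1 member, and both genotypes together 4 members (Jag1, Notch3, Lfng and Hey1) and 3965 genes. The block changed no call between genotypes. Within each genotype Jag1 and Lfng needed their SFZ values to pass the filter.

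Directions reversed as follows. Notch1 between zones was -0.037 over both genotypes and -0.106 in R3-Cntl after quantile normalization. Hes1 between R3-cKO zones was -0.033 with a pseudocount of 0.1, -0.161 after quantile normalization, -0.1 with median-of-ratios factors and -0.477 to 0.666 without single libraries, where Lfng ran from -0.01 to 0.709. Without single libraries the genotype effect of Hey1 was -0.289 to 0.121 in SFZ and -0.154 to 0.282 in DZ, and that of Notch2 in SFZ -0.076 to 0.13. The difference of effects was 0.004 for Notch3 with a pseudocount of 0.1 and 0.027 for Notch2 after quantile normalization, and without single libraries -0.341 to 0.076 for Notch3, -0.184 to 0.022 for Notch2, -0.109 to 0.217 for Notch1 and -0.407 to 0.058 for Hey1. Read depth behind low values such as those of Jag2, Dll1 and Heyl is unknown, so their counting error could not be given.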
